A study of Mus musculus with 4 samples.

Results

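Immediate-early genes are switched on within minutes of a signal, without new protein synthesis, through factors such as SRF at CArG boxes and CREB at cAMP response elements, and their mRNAs are short-lived. Most encode transcription factors or feedback inhibitors of kinase signalling, and in B-lineage cells they respond to antigen-receptor signals, cytokines and cell stress. Several of the mRNAs carry AU-rich elements in the 3′ UTR, where proteins such as tristetraprolin can recruit the CCR4-NOT complex, which shortens poly(A) tails. Cnot3 encodes a subunit of that complex.

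A list of 31 such genes was followed in a bone marrow sort meant for pro-B cells, the early B-lineage cells that rearrange the immunoglobulin heavy chain genes. The sort also held transcripts of other cells, as given below. The members were listed by gene symbol, with earlier results of these data known, and all 31 were among the 23312 genes of the deposited tables. The cells were sorted from bone marrow as B220+CD43+, and RNA was sequenced in 4 libraries, 2 of Cnot3 fl/fl RERTCre mice and 2 of Cnot3 +/+ RERTCre mice. All mice were C57BL/6, carried RERTCre, a Cre recombinase that tamoxifen activates in any cell expressing it, and received 1 mg tamoxifen on days 1, 2, 4 and 7, with analysis on day 10. Each genotype has an individual replicate 1 and replicate 2. The labels do not say that a number marks a shared day, litter or run, nor do they give the age of the mice. Set side by side were the comparison between the genotypes and that of replicate 2 with replicate 1.

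Values were FPKM, fragments scaled by transcript length and library size, with no read counts. Relative depth was estimated from the most common ratio of a library's low values to those of Cnot3 fl/fl replicate 2. It was 1 and 0.957 for replicates 2 and 1 of Cnot3 fl/fl, against 0.898 and 0.746 for those of Cnot3 +/+. In the other libraries 8.68% to 12.1% of the genes with low values lay at that ratio, and the absolute depth was unknown. Cnot3, the targeted gene, stood at 40.3 FPKM (replicate 2) and 39.0 FPKM (replicate 1) in Cnot3 fl/fl, and 39.3 FPKM (replicate 2) and 41.6 FPKM (replicate 1) in Cnot3 +/+. Which exons are floxed is not in the labels, so this gene-level value cannot check the genotypes. Y-linked Ddx3y was at 16.0 FPKM in Cnot3 +/+ replicate 1 and at 0 to 0.0093 FPKM in the other libraries, whereas the female-specific RNA Xist was at 0.0242 FPKM in that library and at 54.3 to 63.1 FPKM in the others. Transcripts of other bone marrow cells, above all plasmacytoid dendritic cells, were abundant in all 4 libraries, so the levels below are those of the sorted mixture. Fewer cells of a type and less RNA per cell cannot be told apart in such samples.

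Promoters are shown first, because CREB and SRF sites near the start are the textbook route to these genes. RefSeq start sites (GRCm38.p6) were found for 25 of the 31 members, with 31 promoters of 300 bases, 250 before and 50 after the start. Ier2, Egr1, Egr3, Trib1, Rgs1 and Cd69 had no entry in the table. The core of the cAMP response element, TGACG on either strand, was present in promoters of 15 of the 25 genes, against 36.8% of 8825 genes tested for expression. Cyr61, which was not tested for expression, is among the 25 and among these 15. The full element TGACGTCA, which contains the core on both strands, was in 2 of the 25 genes, Dusp1 and Maff, against 3.68%. The CArG box was in 2, Dusp5 and Egr2, against 1.52%, and the NF-kappaB site was in 5, Egr2, Fos, Fosb, Fosl2 and Nr4a1, against 8.28%. The EGR site GCGTGGGCG was in 1, Maff, against 1.45%, and the AP-1 site TGANTCA was in 0, against 5.84%. All motifs were searched on both strands. A match describes letters in this window only, and no factor binding was measured.

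The 6 promoters below belong to members that were higher in replicate 2 by the test described later and that hold a CArG box or a cAMP element, and they are printed 5′ to 3′ on the strand of the gene. Capitals mark CArG boxes and TGACG or its reverse complement CGTCA.
Junb (chr8:84978699-84978998, minus strand): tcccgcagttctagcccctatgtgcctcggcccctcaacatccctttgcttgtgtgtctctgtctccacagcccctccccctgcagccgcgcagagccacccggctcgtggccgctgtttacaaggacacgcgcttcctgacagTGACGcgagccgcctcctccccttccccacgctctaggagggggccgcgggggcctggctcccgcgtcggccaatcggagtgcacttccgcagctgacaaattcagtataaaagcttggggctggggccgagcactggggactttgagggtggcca
Atf3 (chr1:191183284-191183583, minus strand): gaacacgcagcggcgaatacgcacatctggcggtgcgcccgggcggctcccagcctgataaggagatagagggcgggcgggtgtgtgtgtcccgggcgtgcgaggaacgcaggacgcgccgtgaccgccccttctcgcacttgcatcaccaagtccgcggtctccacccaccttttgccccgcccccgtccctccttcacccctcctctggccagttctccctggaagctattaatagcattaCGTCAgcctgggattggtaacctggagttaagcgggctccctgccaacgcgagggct
Klf4 (chr4:55532426-55532725, minus strand): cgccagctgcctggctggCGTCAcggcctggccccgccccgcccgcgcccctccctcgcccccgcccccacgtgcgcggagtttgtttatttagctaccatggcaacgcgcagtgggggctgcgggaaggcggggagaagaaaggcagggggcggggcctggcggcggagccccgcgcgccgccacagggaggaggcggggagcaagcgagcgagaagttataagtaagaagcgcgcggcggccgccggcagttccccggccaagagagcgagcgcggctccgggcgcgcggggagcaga
Nr4a1 (chr15:101266596-101266895, plus strand): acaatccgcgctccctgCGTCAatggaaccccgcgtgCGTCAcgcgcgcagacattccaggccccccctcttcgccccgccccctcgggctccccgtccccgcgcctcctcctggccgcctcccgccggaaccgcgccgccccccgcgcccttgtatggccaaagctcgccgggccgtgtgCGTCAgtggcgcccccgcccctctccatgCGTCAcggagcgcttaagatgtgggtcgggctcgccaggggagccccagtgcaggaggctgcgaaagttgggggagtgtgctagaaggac
Dusp1 (chr17:26508423-26508722, minus strand): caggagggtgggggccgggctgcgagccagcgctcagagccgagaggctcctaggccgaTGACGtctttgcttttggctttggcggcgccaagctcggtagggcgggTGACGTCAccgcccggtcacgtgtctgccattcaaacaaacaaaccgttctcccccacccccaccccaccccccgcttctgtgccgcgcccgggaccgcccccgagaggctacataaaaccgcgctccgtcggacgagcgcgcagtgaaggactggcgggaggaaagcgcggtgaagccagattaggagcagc
Dusp5 (chr19:53528895-53529194, plus strand): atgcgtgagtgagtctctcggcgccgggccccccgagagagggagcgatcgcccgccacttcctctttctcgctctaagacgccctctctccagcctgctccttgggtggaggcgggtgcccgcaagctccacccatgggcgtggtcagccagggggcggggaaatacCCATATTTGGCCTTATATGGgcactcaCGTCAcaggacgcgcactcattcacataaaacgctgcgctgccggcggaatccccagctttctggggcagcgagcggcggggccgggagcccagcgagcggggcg
Dusp5 had 2 adjoining CArG boxes, starting 82 and 72 bases before the start site, followed by 1 core. Nr4a1 had 4 cores and Dusp1 had 3, of which 2 formed the full element that begins 143 bases before the start. Junb, Atf3 and Klf4 each had 1 core. Klf6, another such member, held none of these letters in the window.

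The 3′ UTRs carry the letters that mark AU-rich decay elements. In GENCODE transcripts (GRCm38), ATTTA occurred in 26 of the 30 tested members, or 86.7%, against 65.4% of 10462 tested genes with a 3′ UTR, and the median was 2.26 per kilobase of 3′ UTR against 1.20. In the first 500 bases, among 3′ UTRs of at least that length, it was in 11 of 28 members, or 39.3%, against 48.5% of 7168 genes. The longer element TTATTTATT was in 5 of the 30, or 16.7%, against 7.11% of those genes, although the members' 3′ UTRs were longer, with a median of 1147.5 against 934 bases. In the first 500 bases, 1 of 28 members held it, or 3.57%, against 2.54%. These 5 sites are shown with 9 bases on each side and the element in capitals, in the DNA letters of the reference.
Fos (chr12:85477104-85477130, plus strand): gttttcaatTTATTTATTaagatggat
Fosl2 (chr5:32156872-32156898, plus strand): tttattttaTTATTTATTttaaatgtt
Maff (chr15:79358779-79358805, plus strand): tccacactcTTATTTATTgcacgaatc
Dusp1 (chr17:26506160-26506186, minus strand): agctggtccTTATTTATTtaacacccc
Rgs1 (chr1:144243183-144243209, minus strand): aaatgtttaTTATTTATTacttgaaga
Dusp1 and Maff each held 2 copies, and the site shown is the one nearest the stop codon. Over the 5 members with the element, the median log2 difference between the genotypes was 0.087, and over the 25 without it -0.20. Over all tested genes, the same medians were -0.091 for 744 genes with the element and -0.001 for 9718 without it, of which 8.2% and 9.65% were called between the genotypes.

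Between the genotypes, none of the 30 tested members was called higher or lower in Cnot3 fl/fl, whereas 1046 of 11017 genes, or 9.49%, were called, 6.22% higher and 3.28% lower (limma, adjusted p under 0.05). At an unadjusted p under 0.05 there was 1 member, Gadd45b, or 3.33%, against 33.8% of all genes. The members' log2 differences, Cnot3 fl/fl minus Cnot3 +/+, lay between -0.76 and 0.63 with a median of -0.094, against a median of -0.009 over all tested genes. They were positive in 13 members and negative in 17. Libraries of the 2 genotypes did not overlap in 3 of 30 members, against 64.4% of all genes. Cnot3 fl/fl lay above in 1 member, Egr3, against 32.7%, and below in 2, Gadd45b and Mafk, against 31.7%. The spread within a genotype was wide. For Fos the 95% interval of the log2 difference ran from -1.69 to 1.87, and for Atf3 from -4.26 to 5.51, so changes of either sign lay within them. With 1 library left out, 2 to 18 genes were called higher and 0 to 13 lower, with no member among them. A p-value that misses the threshold here does not show that the genotypes were alike.

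Within each genotype the members were higher in replicate 2 than in replicate 1. This held in both genotypes for 29 of 30 members, against 27.2% of all tested genes, and both replicate 2 libraries lay above both replicate 1 libraries in 26 of 30, against 9.46%. A difference of at least 2-fold in both genotypes was found in 16 of 30 members, against 0.744% of all genes, and a fall of that size in 0, against 0.254%. In a limma fit with genotype and replicate number as terms, 8 members were called higher in replicate 2 and 0 lower, where 0.227% of all genes, 25 in number, were called higher and 0 were called lower. The 8 were Atf3, Junb, Klf4, Klf6, Nr4a1, Dusp1, Dusp5 and Cd69. At an unadjusted p under 0.05 the count was 28 of 30 members, against 4.18% of all genes. The median log2 difference, replicate 2 minus replicate 1, was 1.34 in Cnot3 fl/fl and 1.25 in Cnot3 +/+, against 0.02 and -0.02 over all genes. Summed over the 31 members, the level was 6564 FPKM in replicate 2 and 2413 FPKM in replicate 1 of Cnot3 fl/fl, against 6902 and 2953 FPKM in replicates 2 and 1 of Cnot3 +/+. The replicate-number difference was larger in size than the genotype difference in 27 of 30 members, against 26.8% of all genes. The fit had 1 residual degree of freedom, and the number of members called ranged from 0 with no filter on low values and 1 without the variance trend to 18 when the filter was a mean of 5 FPKM. The share over all genes was not counted under these other settings, and the filter changes which members are tested.

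**Figure D1:**
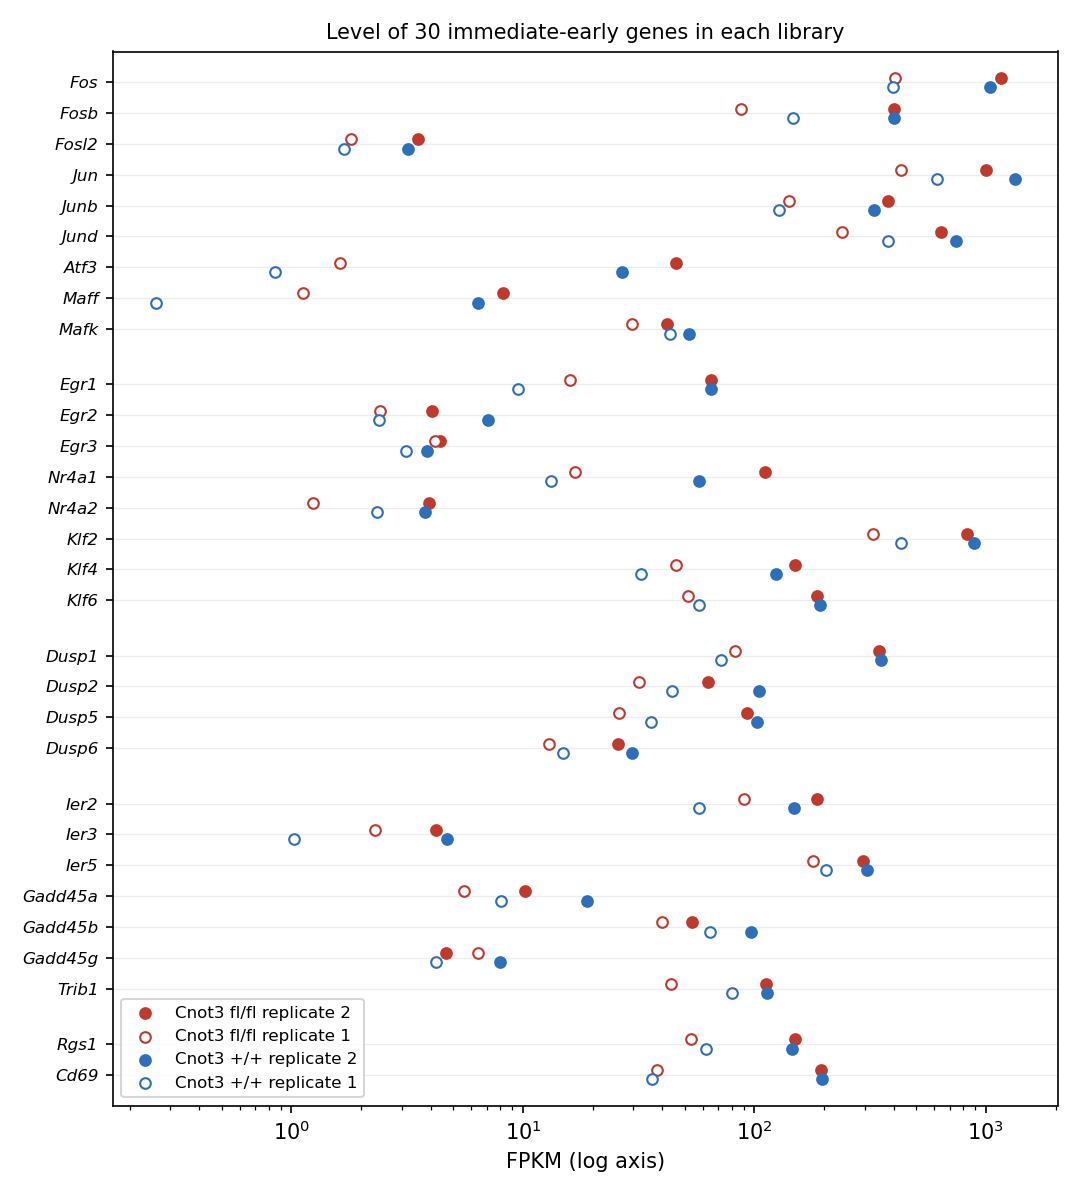
Level of each tested member in FPKM (log axis) in every library, grouped by role. Red points are Cnot3 fl/fl and blue points Cnot3 +/+, filled for replicate 2 and open for replicate 1. Filled points lie right of open points of the same colour in 29 of 30 genes, the exception being Gadd45g in Cnot3 fl/fl.

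The AP-1 factors are leucine-zipper proteins of the Fos, Jun, Atf and Maf families that bind DNA as dimers. Fos, the founding immediate-early gene, was at 1162 FPKM in replicate 2 and 403 FPKM in replicate 1 of Cnot3 fl/fl, against 1037 and 399 FPKM in replicates 2 and 1 of Cnot3 +/+. Each replicate 2 library was thus more than 2-fold above the replicate 1 library of its genotype, by 2.88-fold in Cnot3 fl/fl and 2.60-fold in Cnot3 +/+. The genotypes' means were 783 ± 537 and 718 ± 451 FPKM in Cnot3 fl/fl and Cnot3 +/+ (SD, n = 2 each), a log2 difference of 0.090 (standard error 0.68, limma adjusted p = 0.94). The replicate-number difference was 1.45, standard error 0.11, with an adjusted p of 0.051 in limma, just outside the threshold. Fosb, its close relative, was at 402 and 87.8 FPKM in replicates 2 and 1 of Cnot3 fl/fl, against 401 and 147 FPKM in those of Cnot3 +/+. Fosl2, the least abundant member of the Fos family in the list, was at 3.54 and 1.804 FPKM in replicates 2 and 1 of Cnot3 fl/fl, against 3.21 and 1.68 FPKM in those of Cnot3 +/+. In both genes, both replicate 2 libraries lay above both replicate 1 libraries.

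The Jun partners were abundant. Jun was at 998 and 430.2 FPKM in replicates 2 and 1 of Cnot3 fl/fl, against 1331 and 618 FPKM in those of Cnot3 +/+. Its replicate 1 libraries were the low ones in both genotypes, and the Cnot3 fl/fl value was below the Cnot3 +/+ value of the same number, with a log2 genotype difference of -0.47 that did not pass (limma adjusted p = 0.58). Junb was at 377 FPKM in replicate 2 and 141 FPKM in replicate 1 of Cnot3 fl/fl, against 327 and 128 FPKM in replicates 2 and 1 of Cnot3 +/+. It was higher in replicate 2, with a log2 difference of 1.38 (standard error 0.088, limma adjusted p = 0.043), and the genotypes overlapped. Jund, known for a steadier basal expression than its relatives, was at 637 and 239.8 FPKM in replicates 2 and 1 of Cnot3 fl/fl, against 742 and 378 FPKM in those of Cnot3 +/+.

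Among the remaining leucine-zipper genes, Atf3, a stress-induced factor of the ATF family, had the widest range of the list. It was at 45.7 FPKM in replicate 2 and 1.63 FPKM in replicate 1 of Cnot3 fl/fl, against 26.8 and 0.852 FPKM in replicates 2 and 1 of Cnot3 +/+. The replicate 2 libraries were 28.0-fold and 31.4-fold above the replicate 1 libraries in Cnot3 fl/fl and Cnot3 +/+, a log2 difference of 4.03 (standard error 0.12, limma adjusted p = 0.017). That difference ranked 6 of 11017 genes. The small Maf proteins lack a transactivation domain and pair with other leucine-zipper factors. Maff was at 8.20 and 1.12 FPKM in replicates 2 and 1 of Cnot3 fl/fl, against 6.39 and 0.260 FPKM in those of Cnot3 +/+, so its lowest value was in Cnot3 +/+ replicate 1. Mafk was at 42.1 and 29.5 FPKM in replicates 2 and 1 of Cnot3 fl/fl, against 52.4 and 43.0 FPKM in those of Cnot3 +/+. Neither Cnot3 fl/fl library reached the lower Cnot3 +/+ library, with a log2 difference of -0.42 that did not pass (limma adjusted p = 0.21).

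The Egr, Klf and Nr4a genes encode zinc-finger factors and orphan nuclear receptors, several of them induced by antigen-receptor signals. Egr1 was at 65.1 FPKM in replicate 2 and 15.9 FPKM in replicate 1 of Cnot3 fl/fl, against 65.0 and 9.53 FPKM in replicates 2 and 1 of Cnot3 +/+. The 2 replicate 2 libraries nearly coincided, and they were 4.09-fold and 6.82-fold above the replicate 1 libraries in Cnot3 fl/fl and Cnot3 +/+ (limma adjusted p = 0.051 for replicate number). Egr2 was at 4.06 FPKM (replicate 2) and 2.41 FPKM (replicate 1) in Cnot3 fl/fl, and 7.09 FPKM (replicate 2) and 2.38 FPKM (replicate 1) in Cnot3 +/+. Egr3 was at 4.37 FPKM (replicate 2) and 4.18 FPKM (replicate 1) in Cnot3 fl/fl, and 3.86 FPKM (replicate 2) and 3.14 FPKM (replicate 1) in Cnot3 +/+. Egr3 thus stood apart from its relatives, with a replicate-number difference of 0.14 and with both Cnot3 fl/fl libraries above both Cnot3 +/+ libraries, although the log2 difference of 0.23 did not pass (limma adjusted p = 0.29).

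Nr4a1, a reporter of recent antigen-receptor signalling in lymphocytes, was at 111 FPKM in replicate 2 and 16.8 FPKM in replicate 1 of Cnot3 fl/fl, against 57.6 and 13.3 FPKM in replicates 2 and 1 of Cnot3 +/+. It was higher in replicate 2, by a log2 difference of 2.35 (standard error 0.17, limma adjusted p = 0.046). Its genotype difference in limma was 0.63, standard error 1.09 and adjusted p = 0.72, while Nr4a1 was marked as significant in the authors' deposited table, with a q-value of 0.015. The larger gap between the genotypes was between the replicate 2 libraries. Nr4a2 was at 3.94 FPKM (replicate 2) and 1.24 FPKM (replicate 1) in Cnot3 fl/fl, and 3.77 FPKM (replicate 2) and 2.34 FPKM (replicate 1) in Cnot3 +/+, near the lower end of the list.

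Of the Klf genes, Klf2, which keeps lymphocytes quiescent and is turned down on activation, was the most abundant at 827 and 326 FPKM in replicates 2 and 1 of Cnot3 fl/fl, against 892 and 432 FPKM in those of Cnot3 +/+. Klf4 was at 149.7 FPKM in replicate 2 and 46.0 FPKM in replicate 1 of Cnot3 fl/fl, against 124 and 32.5 FPKM in replicates 2 and 1 of Cnot3 +/+. Klf6 was at 186 and 51.9 FPKM in replicates 2 and 1 of Cnot3 fl/fl, against 193 and 57.9 FPKM in those of Cnot3 +/+. Klf4 and Klf6 were both higher in replicate 2, with log2 differences of 1.79 and 1.77 and standard errors of 0.10 and 0.085 (limma adjusted p = 0.032 and 0.029). Klf2 had a replicate-number difference of 1.19 that did not pass (limma adjusted p = 0.086), and in none of the Klf genes did the genotypes separate.

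The Dusp genes encode dual-specificity phosphatases that dephosphorylate MAP kinases and so close a feedback loop. Dusp1, which acts in the nucleus on p38 and JNK, was at 344 FPKM in replicate 2 and 82.6 FPKM in replicate 1 of Cnot3 fl/fl, against 353 and 72.0 FPKM in replicates 2 and 1 of Cnot3 +/+. It was higher in replicate 2, 4.16-fold in Cnot3 fl/fl and 4.90-fold in Cnot3 +/+ (log2 difference 2.16, standard error 0.10, limma adjusted p = 0.029), while the genotypes differed by 0.079 on the log2 scale with an adjusted p of 0.96 in limma. Dusp5, a nuclear ERK phosphatase, was at 93.1 and 26.2 FPKM in replicates 2 and 1 of Cnot3 fl/fl, against 103 and 35.6 FPKM in those of Cnot3 +/+. It too was higher in replicate 2 (log2 difference 1.65, limma adjusted p = 0.043). Dusp6, the cytoplasmic ERK phosphatase, was at 25.8 and 12.9 FPKM in replicates 2 and 1 of Cnot3 fl/fl, against 29.7 and 15.0 FPKM in those of Cnot3 +/+. Its replicate-number difference of 0.94 did not pass (limma adjusted p = 0.063).

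Dusp2, a nuclear phosphatase of activated lymphocytes, was at 63.2 FPKM in replicate 2 and 31.7 FPKM in replicate 1 of Cnot3 fl/fl, against 105 and 43.9 FPKM in replicates 2 and 1 of Cnot3 +/+. The Cnot3 fl/fl value was the lower one at each replicate number, but the Cnot3 fl/fl replicate 2 library lay above the Cnot3 +/+ replicate 1 library, so the genotypes overlapped. The authors' deposited table marked Dusp2 as significant, with a q-value of 0.041. The limma log2 difference between the genotypes was -0.59 with a standard error of 0.52 (adjusted p = 0.47).

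The Gadd45 genes encode small stress sensors that act on p38 and JNK signalling. Gadd45b was at 53.7 FPKM in replicate 2 and 39.9 FPKM in replicate 1 of Cnot3 fl/fl, against 96.5 and 64.6 FPKM in replicates 2 and 1 of Cnot3 +/+. Each Cnot3 fl/fl library was below both Cnot3 +/+ libraries, with means of 46.8 ± 9.77 and 80.5 ± 22.5 FPKM (SD, n = 2 each). Gadd45b had the most negative genotype difference of the 30 members, -0.76 on the log2 scale with a standard error of 0.24, which did not pass (limma adjusted p = 0.11), and was 1 of 3 members, with Dusp2 and Nr4a1, that the authors' deposited table marked as significant (q-value 0.009). With replicate number as a second term, Gadd45b was the 1 member called lower in Cnot3 fl/fl, against 2.45% of all genes, and no member was called higher. The authors' table marked 6.59% of the 12154 genes it tested. Gadd45a, a p53 target, was at 10.2 and 5.56 FPKM in replicates 2 and 1 of Cnot3 fl/fl, against 19.0 and 8.07 FPKM in those of Cnot3 +/+. Its locus in the files spans 45557 bases, against a gene length of 2312 bases in RefSeq, so fragments of a neighbour may be in its value. Gadd45g was at 4.65 and 6.39 FPKM in replicates 2 and 1 of Cnot3 fl/fl, against 7.96 and 4.21 FPKM in those of Cnot3 +/+. It was the only member whose replicate numbers ran in opposite directions in the genotypes.

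The Ier genes and Trib1 complete this group. Ier2, a nuclear growth-response factor, was at 186 and 90.2 FPKM in replicates 2 and 1 of Cnot3 fl/fl, against 148 and 57.6 FPKM in those of Cnot3 +/+. Ier5, induced by radiation and heat, was at 295 and 179.6 FPKM in replicates 2 and 1 of Cnot3 fl/fl, against 307 and 204 FPKM in those of Cnot3 +/+. Ier3, an inhibitor of cell death, was at 4.22 and 2.29 FPKM in replicates 2 and 1 of Cnot3 fl/fl, against 4.72 and 1.03 FPKM in those of Cnot3 +/+. All 3 were at their lowest in a replicate 1 library, and Ier3 was near the bottom of the list throughout. Trib1, a pseudokinase that targets C/EBP factors for degradation, was at 112 and 43.7 FPKM in replicates 2 and 1 of Cnot3 fl/fl, against 113 and 80.0 FPKM in those of Cnot3 +/+. The Trib1 replicate 2 libraries nearly coincided, and the replicate 1 libraries lay farther apart.

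Cd69, the early activation antigen that retains lymphocytes in tissue, was at 193 FPKM in replicate 2 and 38.1 FPKM in replicate 1 of Cnot3 fl/fl, against 196 and 36.0 FPKM in replicates 2 and 1 of Cnot3 +/+. It was higher in replicate 2, 5.06-fold in Cnot3 fl/fl and 5.44-fold in Cnot3 +/+ (log2 difference 2.36, standard error 0.084, limma adjusted p = 0.019), and its genotype difference was 0.031 (standard error 1.09, limma adjusted p = 0.99). Rgs1, which dampens chemokine-receptor signalling, was at 150.4 and 53.2 FPKM in replicates 2 and 1 of Cnot3 fl/fl, against 146 and 62.0 FPKM in those of Cnot3 +/+, with a replicate-number difference of 1.35 (limma adjusted p = 0.051). Cyr61, which encodes a secreted matrix protein of fibroblasts and endothelium, was at or under 0.128 FPKM in every library, was listed at 0 in Cnot3 +/+ replicate 1, and was not tested.

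**Figure D2:**
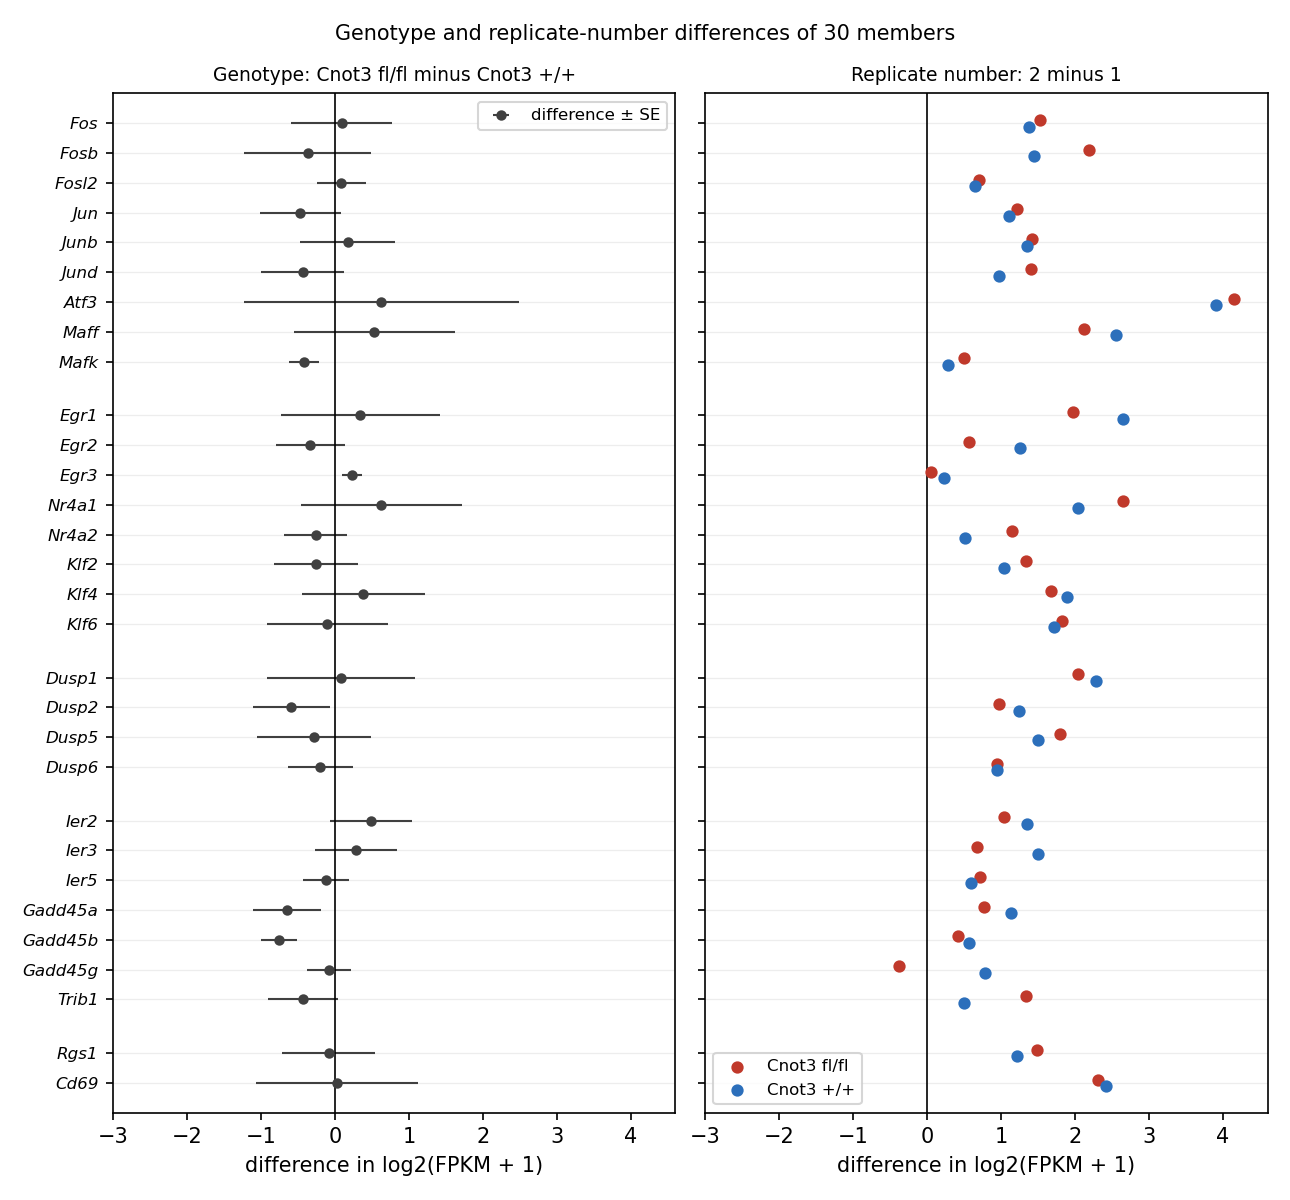
Differences in log2(FPKM + 1) of the 30 tested members. The left panel shows Cnot3 fl/fl minus Cnot3 +/+ with its standard error from limma, between -0.76 and 0.63, and the right panel shows replicate 2 minus replicate 1 in Cnot3 fl/fl (red) and Cnot3 +/+ (blue), above 0 in every case but Gadd45g in Cnot3 fl/fl.

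The size of the replicate-number difference was similar in both genotypes. Across the 30 members, the difference in Cnot3 fl/fl and that in Cnot3 +/+ had a Pearson r of 0.85, and across the other 10987 tested genes it was 0.111. These values describe genes within 1 pair of libraries per genotype, and genes are not independent replicates. The 2 differences of a member lay 0.26 apart on the log2 scale in the median and at most 1.17 apart, for Gadd45g. Of the 100 genes with the largest mean difference over the genotypes, 19 were members, and of the 200 largest, 25. Leaving out the library in which Ddx3y was detected at 16.0 FPKM leaves the Cnot3 fl/fl pair, with a median difference of 1.34. Within Cnot3 +/+, replicate number and the Ddx3y and Xist difference cannot be told apart.

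**Figure D3:**
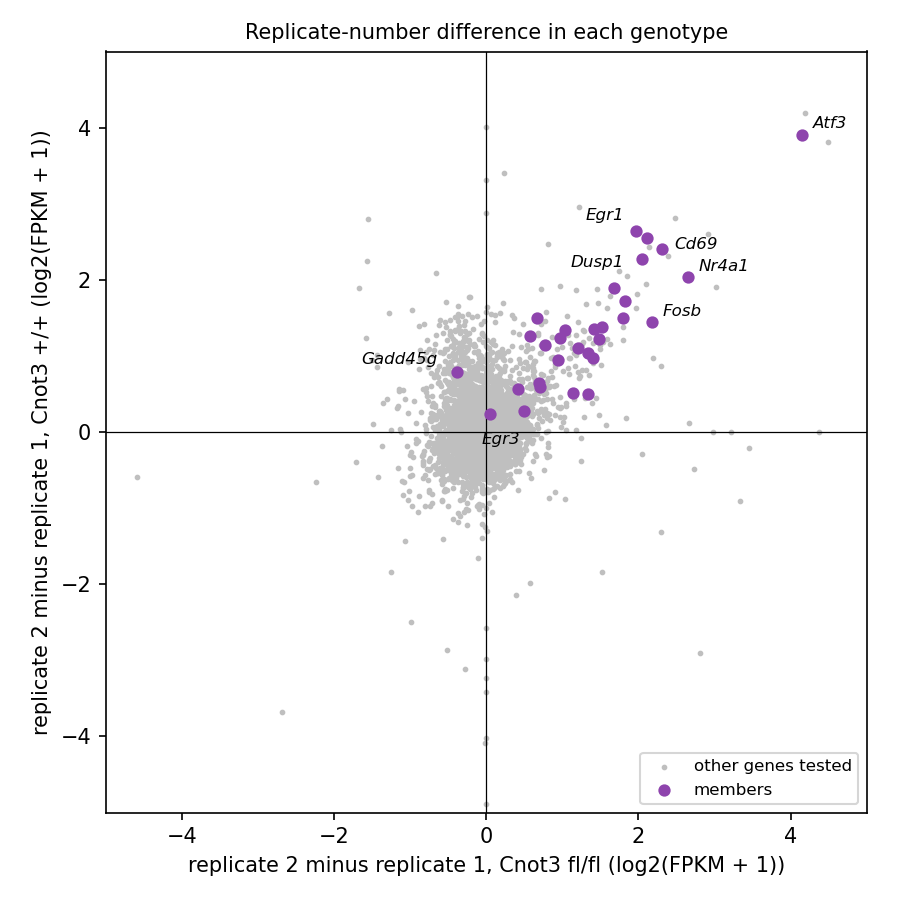
Replicate 2 minus replicate 1 in log2(FPKM + 1) for each tested gene, in Cnot3 fl/fl on the horizontal and Cnot3 +/+ on the vertical axis. Members (purple) lie in the upper right apart from Gadd45g, while other genes (grey) gather around 0, and 27 genes with a difference beyond 5 lie outside the axes.

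By role, the median replicate-number difference was 1.41 in Cnot3 fl/fl and 1.35 in Cnot3 +/+ over the 9 leucine-zipper genes, 1.51 and 1.49 over the 8 Egr, Klf and Nr4a genes, and 1.39 and 1.37 over the 4 Dusp genes. It was 0.71 and 0.78 over the 7 genes of the Ier, Gadd45 and Trib1 group, where none was called, against 0.227% of all genes. The corresponding medians of the genotype difference were 0.087, 0.066, -0.24 and -0.12.

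Further immediate-early genes outside the members were listed by name. Of 27 tested, 24 were higher in replicate 2 in both genotypes, against 27.2% of all tested genes. Among these genes 3 were called higher, against 0.227%, and 0 lower. The median replicate-number difference was 1.18 in Cnot3 fl/fl and 1.10 in Cnot3 +/+. The 3 were the kinase gene Plk2, the small GTPase gene Rhob and Nfkbia, which encodes the inhibitor of NF-kappaB. Plk2 was at 14.4 FPKM (replicate 2) and 2.51 FPKM (replicate 1) in Cnot3 fl/fl, and 18.0 FPKM (replicate 2) and 2.51 FPKM (replicate 1) in Cnot3 +/+. Rhob was at 119 FPKM (replicate 2) and 48.3 FPKM (replicate 1) in Cnot3 fl/fl, and 182 FPKM (replicate 2) and 72.2 FPKM (replicate 1) in Cnot3 +/+. Nfkbia was at 230.4 FPKM (replicate 2) and 101 FPKM (replicate 1) in Cnot3 fl/fl, and 204 FPKM (replicate 2) and 83.6 FPKM (replicate 1) in Cnot3 +/+. Between the genotypes 1 of the 27 fell, against 3.28% of all tested genes. It was the Notch target gene Hes1, at 0.554 FPKM (replicate 2) and 0.807 FPKM (replicate 1) in Cnot3 fl/fl, and 4.78 FPKM (replicate 2) and 2.89 FPKM (replicate 1) in Cnot3 +/+ (log2 difference -1.50, limma adjusted p = 0.041). Those with the next smallest p, Socs1, Bhlhe40 and Id2, had genotype differences of -0.51, 1.01 and 0.26 (limma adjusted p = 0.13, 0.22 and 0.25).

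The kinases and factors that act upstream of these genes formed another list. Of 24 tested genes for SRF, CREB and the MAP kinase cascades, 5 were higher in replicate 2 in both genotypes, against 27.2% of all tested genes. None was called for replicate number, against 0.227% of all genes, so these counts were near those of genes in general. The medians were 0.091 in Cnot3 fl/fl and -0.04 in Cnot3 +/+. Elk4, an SRF partner, fell in Cnot3 fl/fl, at 13.03 FPKM (replicate 2) and 12.0 FPKM (replicate 1) in Cnot3 fl/fl, and 17.7 FPKM (replicate 2) and 19.2 FPKM (replicate 1) in Cnot3 +/+ (log2 difference -0.53, limma adjusted p = 0.043). With replicate number as a second term its adjusted p was 0.057 in limma and did not pass. Elk4 was the only gene of the 24 called between the genotypes, where 3.28% of all tested genes were called lower. The SRF coactivator gene Mkl1 and the kinase genes Rps6ka1 and Mapkapk2 had genotype differences of 0.52, 0.46 and -0.48, which did not pass (limma adjusted p = 0.08, 0.079 and 0.077).

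Genes for proteins that bind AU-rich elements or bring CCR4-NOT to mRNAs were examined as the decay side of the pathway. Of 17 tested, 1 fell between the genotypes, against 3.28% of all genes, 0 rose and 16 did not pass, with a median of -0.24. The one that fell was Tial1, which encodes an AU-rich element binding translational repressor, at 18.4 FPKM (replicate 2) and 17.9 FPKM (replicate 1) in Cnot3 fl/fl, and 23.8 FPKM (replicate 2) and 24.4 FPKM (replicate 1) in Cnot3 +/+ (log2 difference -0.39, limma adjusted p = 0.048). With the second term the adjusted p was 0.066 in limma and did not pass. Elavl1, Rc3h1 and Rc3h2 had differences of -0.30, -0.38 and -0.41 (limma adjusted p = 0.088, 0.069 and 0.12). None of the 17 was called for replicate number, against 0.227% of all genes, while 9 were higher in replicate 2 in both genotypes, against 27.2%. Their median replicate-number difference over the 17 was 0.086 in Cnot3 fl/fl and 0.18 in Cnot3 +/+. Zfp36 and Btg2, which encode tristetraprolin and an antiproliferative CCR4-NOT adaptor and are themselves immediate-early genes, were named after their values were seen. Zfp36 was at 903 FPKM (replicate 2) and 319 FPKM (replicate 1) in Cnot3 fl/fl, and 615 FPKM (replicate 2) and 287 FPKM (replicate 1) in Cnot3 +/+. Btg2 was at 542 FPKM (replicate 2) and 315 FPKM (replicate 1) in Cnot3 fl/fl, and 434 FPKM (replicate 2) and 305 FPKM (replicate 1) in Cnot3 +/+.

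Heat shock genes were listed as well. Of 12 heat shock genes, all 12 were higher in replicate 2 in both genotypes, against 27.2% of all tested genes. Hspa1a, Hspa1b and Dnajb1, which encode inducible chaperones, were called higher in replicate 2 (limma adjusted p = 0.041, 0.029 and 0.044), against 0.227% of all genes. Hspa1a was at 114 FPKM (replicate 2) and 33.4 FPKM (replicate 1) in Cnot3 fl/fl, and 147 FPKM (replicate 2) and 33.2 FPKM (replicate 1) in Cnot3 +/+. Hspa1b, a near-identical copy of Hspa1a that can share its fragments, was at 157 FPKM (replicate 2) and 51.5 FPKM (replicate 1) in Cnot3 fl/fl, and 224 FPKM (replicate 2) and 71.7 FPKM (replicate 1) in Cnot3 +/+. Between the genotypes none of the 12 was called, against 9.49% of all tested genes, a share at which so short a list may hold none. Hsph1, Hspe1, Hspd1 and Bag3 had genotype differences of -0.51, -0.57, -0.45 and -0.31. With replicate number as a second term, Hspe1 and Hspa1b were called lower in Cnot3 fl/fl (limma adjusted p = 0.048 and 0.049), against 2.45% of all genes.

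Markers of the cells in the sort were summed for each library. The 12 B-lineage genes summed to 760.9 FPKM (replicate 2) and 772.3 FPKM (replicate 1) in Cnot3 fl/fl, and 1392 FPKM (replicate 2) and 996.9 FPKM (replicate 1) in Cnot3 +/+. Cd79a, Pax5, Vpreb1, Vpreb3 and Igll1 fell in Cnot3 fl/fl, with log2 differences of -1.001, -1.26, -3.31, -2.41 and -2.77, while Dntt, Cd79b and Blnk, the most abundant of the list, had 0.20, -0.27 and 0.054 and did not pass. The 10 plasmacytoid dendritic genes summed to 10521 FPKM (replicate 2) and 8928 FPKM (replicate 1) in Cnot3 fl/fl, and 10819 FPKM (replicate 2) and 11307 FPKM (replicate 1) in Cnot3 +/+, with Bst2, Irf8 and Ly6d the most abundant, and Cox6a2 fell (log2 difference -0.77, limma adjusted p = 0.049). Of this list, 9 genes did not pass and 3 of the 10 differences were positive. Bst2, Irf8 and Ly6d had -0.16, 0.078 and -0.62. The 12 neutrophil and monocyte genes summed to 533.1 FPKM (replicate 2) and 569.3 FPKM (replicate 1) in Cnot3 fl/fl, and 492.4 FPKM (replicate 2) and 446.0 FPKM (replicate 1) in Cnot3 +/+, and Elane, Ctsg and Itgam rose by 1.04, 1.35 and 0.68 on the log2 scale. The other 9 did not pass, 4 of the 12 differences were negative, and the most abundant, Cybb, S100a9 and S100a8, had 0.35, 0.056 and -0.038. The 10 T and NK genes summed to 927.7 FPKM (replicate 2) and 1118 FPKM (replicate 1) in Cnot3 fl/fl, and 889.7 FPKM (replicate 2) and 937.4 FPKM (replicate 1) in Cnot3 +/+, and Cd8a rose by 2.65 on the log2 scale. The other 9 did not pass, 5 of the 10 differences were negative, and the most abundant, Ccl5, Cd4 and Nkg7, had -0.19, -0.44 and 0.020. The 7 erythroid genes summed to 40.3 FPKM (replicate 2) and 22.0 FPKM (replicate 1) in Cnot3 fl/fl, and 63.8 FPKM (replicate 2) and 28.8 FPKM (replicate 1) in Cnot3 +/+, and the 3 that passed the filter on low values, Hba-a1, Hbb-b1 and Alas2, were above in replicate 2 in both genotypes. With replicate number as a second term, the adjusted p in limma was 0.051 for Igll1, 0.055 for Pax5, 0.052 for Cox6a2 and 0.052 for Itgam, and none of these passed. None of the 47 tested marker genes was called for replicate number, against 0.227% of all genes, a share at which so few genes may hold none. The T and NK genes had a median replicate-number difference of -0.605 in Cnot3 fl/fl and -0.10 in Cnot3 +/+, below 0 where that of the members was above 0. In Cnot3 fl/fl and Cnot3 +/+ the medians were -0.469 and 0.123 for the neutrophil and monocyte genes and -0.201 and 0.52 for the B-lineage genes. For the plasmacytoid dendritic genes they were 0.168 and -0.107. The negative median in Cnot3 fl/fl was thus shared by other marker lists. Ncr1 and Gzmb are named here with their values already known. Together with Nkg7, these NK genes had replicate-number differences of -0.86, -0.59 and -0.59 (limma adjusted p = 0.065, 0.20 and 0.17). The -0.86 was the lowest of the list, and Ccl5, its most abundant gene, had -0.26 (limma adjusted p = 0.77). Of the 10 T and NK genes, 2 were higher in replicate 2 in both genotypes, against 27.2% of all tested genes. They were Cd4 and Cd8a, with differences of 0.39 and 0.37. No marker was listed at 0 in all libraries. The part of depth, cell makeup and heat shock in the members' replicate-number difference was not tested.

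**Figure D4:**
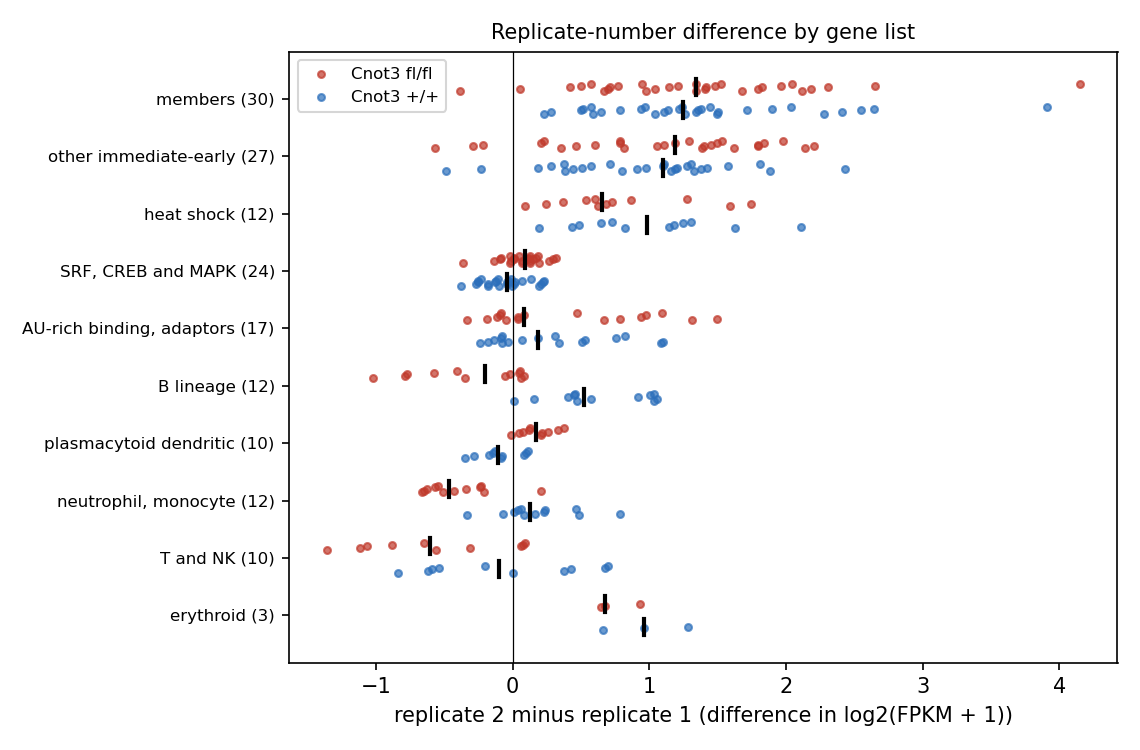
Replicate 2 minus replicate 1 in log2(FPKM + 1) by gene list, with Cnot3 fl/fl in red above Cnot3 +/+ in blue, 1 point per tested gene, black bars at the medians and the number of genes in brackets. The members, the other immediate-early genes, the heat shock genes and the 3 erythroid genes have medians between 0.652 and 1.34 in both genotypes.

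In the files' mm9 locus column, Fos lies on chromosome 12 from 86814850 to 86818219, Atf3 on chromosome 1 from 192994175 to 193007212, Dusp1 on chromosome 17 from 26642535 to 26645417 and Cd69 on chromosome 6 from 129217342 to 129225387. The base from which those starts are numbered is not stated.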

How the data were processed

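RNA of B220+CD43+ cells was measured in 4 libraries; genotypes and replicate numbers are those of the sample titles. Per the labels' protocols, a stranded mRNA kit and 15 cycles of PCR were used. The submitters' processing notes name mm9, Cuffnorm 2.2.1, Cufflinks 2.2.1, Bowtie2 2.2.3.0, TopHat2 2.0.13 and bcl2fastq 1.8.4 without roles, annotation or scaling. Files from the authors hold FPKM per gene and library, and the authors' deposited comparison table holds p-values and q-values. Here log2(FPKM + 1) was fitted with limma 3.58.1 in R 4.3.3 (eBayes with trend, two-sided) over the 11017 genes whose mean reached 1 FPKM, with Benjamini-Hochberg adjustment over all of them and calls at 0.05. Genotype was the only term for genotype differences, with 2 residual degrees of freedom and 2.69 from the prior. Replicate-number differences came from a fit with both terms, with 1 and 3.27. This scale understates changes of low values, while folds are ratios of FPKM. An exact permutation test of 2 against 2 libraries cannot go below 0.333. P-values cover the spread between these libraries only. Members and lists were chosen with earlier results of these data known. All members were named, from other pathway lists those called and up to 4 with the smallest genotype p, and from marker lists those called and the 3 most abundant, except 1 gene that is not reported here. Sequence and summary steps used Python 3.11.15. Alternatives were other pseudocounts, filters and scalings, eBayes settings, a replicate block and leaving out each library.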

Additional observations from a re-analysis of the deposited data

Results flagged for a closer look

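Gadd45g was singled out because its replicate numbers ran in opposite directions in the genotypes. Replicate 2 minus replicate 1 was -0.387 in Cnot3 fl/fl and 0.783 in Cnot3 +/+ in log2(FPKM + 1), with 1 pair of libraries each, and this difference between the genotypes was not tested. No group was large enough to single out one library by its distance from the others.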

How the results depend on the processing

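No member was called between the genotypes under any alternative without the replicate block, and leaving out any library gave 0 members in either direction. Over all genes, 4 were higher and 1 lower with no filter on low values, 242 and 69 without the variance trend, and 2 to 18 higher and 0 to 13 lower with 1 library left out, where a lone library is assumed to vary like the other genotype. The members' median genotype difference, -0.09, was -0.76 to 0.52 with 1 library left out. Members called for replicate number, 8 under the settings used, numbered 17 with a pseudocount of 0.1, 5 with a pseudocount of 5, 0 with no filter, 18 at a minimum mean of 5 FPKM, 13 after quantile normalization, 7 at equal median ratios, 1 without the trend and 17 with robust eBayes. The share of all genes called for replicate number was not counted under these alternatives, so a general rise in calls cannot be told apart. At a minimum mean of 5 FPKM, Fosl2, Egr2, Egr3, Ier3, Nr4a2 and Maff were not tested. The members' median replicate-number difference, 1.19 over both genotypes, was 1.27 over those left at that filter. It was 1.08 after quantile normalization, and 1.25 to 1.34 from 1 genotype's pair alone. Gadd45g had -0.39 to 0.78 in that case.

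The numbers are not stated to pair the mice. Across all tested genes, the replicate-number differences of the genotypes had an r of 0.144, and there are only 2 pairs. With the replicate block, 456 genes were higher and 270 lower, and 1 member was called lower, Gadd45b (adjusted p = 0.038). Of 14 genotype calls in the other lists, 6 were not made with the block, and 7 further genes were called, Bhlhe40, Rhob, Hspa1b, Hspe1, Gzmb, Ncr1 and Hba-a1. Without the block, none of the 14 passed with no filter on low values, 2 passed without the variance trend, and 0 or 1 passed with any 1 library left out.

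With 1 library left out, the genotype difference changed sign in 26 of the 30 members, where 1 genotype kept a single library. The share over all tested genes was not counted. The log2 ranges were Fos -0.673 to 0.852, Fosb -1.458 to 0.725, Fosl2 -0.261 to 0.435, Jun -1.074 to 0.138, Junb -0.534 to 0.879, Jund -1.141 to 0.266, Egr1 -0.981 to 1.666, Egr2 -0.961 to 0.296, Ier2 -0.187 to 1.157, Ier3 -0.465 to 1.031, Ier5 -0.477 to 0.234, Dusp1 -1.059 to 1.217, Dusp2 -1.213 to 0.027, Dusp5 -1.183 to 0.611, Dusp6 -0.670 to 0.275, Nr4a1 -0.698 to 1.955, Nr4a2 -0.834 to 0.308, Atf3 -1.448 to 2.702, Klf2 -0.926 to 0.413, Klf4 -0.566 to 1.329, Klf6 -1.014 to 0.807, Gadd45g -0.471 to 0.312, Maff -0.743 to 1.809, Trib1 -1.107 to 0.236, Rgs1 -0.826 to 0.656, Cd69 -1.175 to 1.237. Among the other genes named, they were Nfkbia -0.417 to 0.860, Plk2 -1.365 to 1.067, Rhob -1.252 to 0.074, Hspa1a -1.232 to 0.879, Hspa1b -1.304 to 0.326, Dnajb1 -0.902 to 0.376, Blnk -0.023 to 0.132, Bst2 -0.330 to 0.002, Irf8 -0.031 to 0.186, S100a8 -0.351 to 0.274, S100a9 -0.336 to 0.449, Nkg7 -0.288 to 0.329, Hbb-b1 -1.097 to 0.184, Alas2 -0.402 to 0.257. Bst2 was at 0.062 after quantile normalization. With 1 library left out, the shift is set by the gap between the 2 replicates of the genotype that lost it. These ranges therefore restate the replicate-number differences. The cause of the Bst2 change under quantile normalization was not tested.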

Other observations

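Among the 25 genes called higher in replicate 2, 8 were members, 6 were in the other pathway lists and 11 were in no list. These 11 were named after their values were seen. Mir24-2, Mir686 and Snora65 among them are small RNA genes, for which a poly(A) library is a poor measure. Fam46c, a poly(A) polymerase gene of lymphoid cells, was at 27.4 FPKM (replicate 2) and 4.08 FPKM (replicate 1) in Cnot3 fl/fl, and 27.9 FPKM (replicate 2) and 3.11 FPKM (replicate 1) in Cnot3 +/+, a log2 difference of 2.65 (limma adjusted p = 0.029). Pmaip1, which encodes the cell-death protein Noxa, was at 53.3 FPKM (replicate 2) and 11.7 FPKM (replicate 1) in Cnot3 fl/fl, and 39.0 FPKM (replicate 2) and 9.43 FPKM (replicate 1) in Cnot3 +/+ (log2 difference 2.02, limma adjusted p = 0.029). Rgcc, Klf11, Irs2, Arrdc3 and Siah2 had log2 differences of 1.95, 1.70, 1.58, 1.31 and 1.29 (limma adjusted p = 0.032, 0.044, 0.046, 0.044 and 0.044). Ndufs5, at 14.1 FPKM (replicate 2) and 1.89 FPKM (replicate 1) in Cnot3 fl/fl, and 3.99 FPKM (replicate 2) and 0.000350 FPKM (replicate 1) in Cnot3 +/+, was close to 0 in 1 library.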
